A study of Homo sapiens with 12 samples.

Results

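The 47 keratin genes measured in this series are those whose symbol is KRT followed by a number in the array's annotation, without the keratin-associated KRTAP genes and without pseudogenes, out of 14884 genes with a symbol. They comprised 5 simple keratins, 5 basal and stress keratins, 12 suprabasal keratins of stratified epithelia, 13 hair keratins, 9 keratins of the hair root sheath and 3 others (KRT23, KRT24 and KRT80). A further 8 keratins, KRT17, KRT6A, KRT6B, KRT34, KRT81, KRT82, KRT86 and KRT222, were not analysed here, so the basal and stress class was described from 5 of its 8 listed genes and the hair class from 13 of 17.

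RNA came from 2 triple-negative breast cancer cell lines, that is, lines of a tumour type that lacks the oestrogen receptor, the progesterone receptor and HER2 amplification. HCC70 cells given JQ1 were compared with HCC70 cells given vehicle (HCC70 Control), and MDA-MB-231 cells given JQ1 with MDA-MB-231 cells given vehicle (MDA-MB-231 Control). JQ1 is a small molecule that displaces the BET family of bromodomain proteins from acetylated chromatin. JQ1 was used at 500 nM and the vehicle was DMSO at 0.1%, each for 72 h, and each of the 4 groups had 3 Human Gene 2.0 ST arrays. Nothing in the labels ties the 3 to separate cultures, and the p-values therefore cover no more than the spread of these arrays, which may be technical, and each line stands for a single tumour.

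Keratins are the intermediate filament proteins of epithelial cells. A type I keratin pairs with a type II keratin to build the filament: KRT18 with KRT8 in simple epithelia, KRT14 with KRT5 in the basal layer of stratified epithelia, and KRT10 with KRT1 or KRT13 with KRT4 in the layers above it. The type I genes lie together on chromosome 17 (25 of those measured) and the type II genes on chromosome 12 (22 of those measured, with the type I gene KRT18 among them). In the breast, KRT8, KRT18 and KRT19 mark luminal cells, while KRT5 and KRT14 mark basal cells and the basal-like tumours to which many triple-negative cancers belong.

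All values are log2 signals from RMA, which corrects background, aligns the arrays' distributions and summarises the probes of a transcript cluster, so a difference of 1 is a doubling of the signal. Arrays of a group correlated at 0.989 to 0.995 over all genes, and array medians lay between 6.16 and 6.26. Array 3 was the highest of its group for 23 of 47 keratins in HCC70 JQ1, 22 in HCC70 Control, 23 in MDA-MB-231 JQ1 and 28 in MDA-MB-231 Control. The lower quartile of all genes was 4.81 in HCC70 JQ1, 4.81 in HCC70 Control, 4.81 in MDA-MB-231 JQ1 and 4.78 in MDA-MB-231 Control. A difference that has one end below it is read as a lower bound with respect to that dim end only. Its SE applies in both directions, so "at least" does not exclude a smaller difference within the spread of the arrays. Arrays of whole cultures cannot tell fewer cells with a keratin from less of its RNA per cell. The labelled lines differed in the markers of their state. Of 10 listed epithelial markers 7 were measured, and of 10 listed mesenchymal markers 7. All 7 epithelial markers measured were higher in HCC70 Control than in MDA-MB-231 Control (ESRP1 by at least 6.52, ST14 by 4.04, EPCAM by 2.90). Of the 7 mesenchymal markers measured 6 were lower (differences of -6.86 for AXL and -2.33 for SNAI2). Of all genes 23.8% were higher and 23.2% lower in this comparison. Of blood cell markers 2 of 8 were measured, and of stromal, endothelial and adipocyte markers 6 of 10, with summed levels over the 6 of 25.9 to 27.1 in HCC70 JQ1, 25.9 to 26.5 in HCC70 Control, 26.5 to 27.1 in MDA-MB-231 JQ1 and 26.1 to 26.5 in MDA-MB-231 Control. The summed level of the blood cell markers measured, CD14 and CSF1R, was 13.9 to 14.4 in HCC70 JQ1, 14.5 to 14.8 in HCC70 Control, 11.8 to 12.01 in MDA-MB-231 JQ1 and 11.9 to 12.3 in MDA-MB-231 Control, with CD14 higher in HCC70 Control by 2.80, and the part of such genes in the keratin results was not tested.

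The promoters of KRT4 and KRT5 are shown because these type II genes had the largest differences between the vehicle-treated lines, while KRT4 fell under JQ1 in HCC70 and KRT5 did not pass the test. Both are from RefSeq on GRCh38.p14 and run 5′ to 3′ from 250 bases before the gene's start to 50 after it. KRT4 lies at chr12:52814067-52814366 and KRT5 at chr12:52520345-52520644, each on the minus strand, and capitals mark a match to an AP-2 site.
KRT4: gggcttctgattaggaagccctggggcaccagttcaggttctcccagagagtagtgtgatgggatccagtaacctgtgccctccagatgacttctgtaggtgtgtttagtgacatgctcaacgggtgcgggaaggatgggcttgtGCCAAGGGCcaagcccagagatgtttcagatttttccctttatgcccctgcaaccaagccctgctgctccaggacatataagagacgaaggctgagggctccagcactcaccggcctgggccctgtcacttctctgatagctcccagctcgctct
KRT5: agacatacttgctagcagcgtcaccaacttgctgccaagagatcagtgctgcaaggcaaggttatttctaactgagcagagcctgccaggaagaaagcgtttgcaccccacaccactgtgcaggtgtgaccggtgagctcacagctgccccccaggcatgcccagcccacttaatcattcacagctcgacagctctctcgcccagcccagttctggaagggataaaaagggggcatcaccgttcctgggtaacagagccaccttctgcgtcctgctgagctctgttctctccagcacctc
The motifs searched on both strands were a TATA box (TATAAA), a GC box (GGGCGG), an AP-1 site (TGANTCA), an AP-2 site (GCCNNNGGC) and a GRHL site (AACCGGTT). KRT4 held 1 AP-2 match, GCCAAGGGC, at bases -105 to -97 from the start, and the KRT5 window held none of the 5. Over 27305 promoters of the same length the matches were found in 11.95%, 44.6%, 7.76%, 23.0% and 0.117% in that order of motifs, so the KRT4 match is a common one. Of the 47 keratins, 32 had a promoter in that table.

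Most keratins were dim on these arrays. In all 4 groups 23 of 47 had a mean below the lower quartile of genes, and 7 had a mean above the median of genes in all 4: KRT7, KRT8, KRT18, KRT19, KRT16, KRT80 and the hair keratin KRT85. The number below the lower quartile was 25 in HCC70 JQ1, 27 in HCC70 Control, 29 in MDA-MB-231 JQ1 and 31 in MDA-MB-231 Control. The simple keratins KRT7, KRT8, KRT18 and KRT19 were above the median in every group and KRT20, a marker of intestinal and urothelial epithelium, was below the lower quartile in every group (means 4.17 to 4.37). The hair and root sheath classes were dim, with 8 of 13 and 6 of 9 genes below the lower quartile in all groups. These are positions of each gene's signal within its array and rank no keratin against another.

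**Figure D1:**
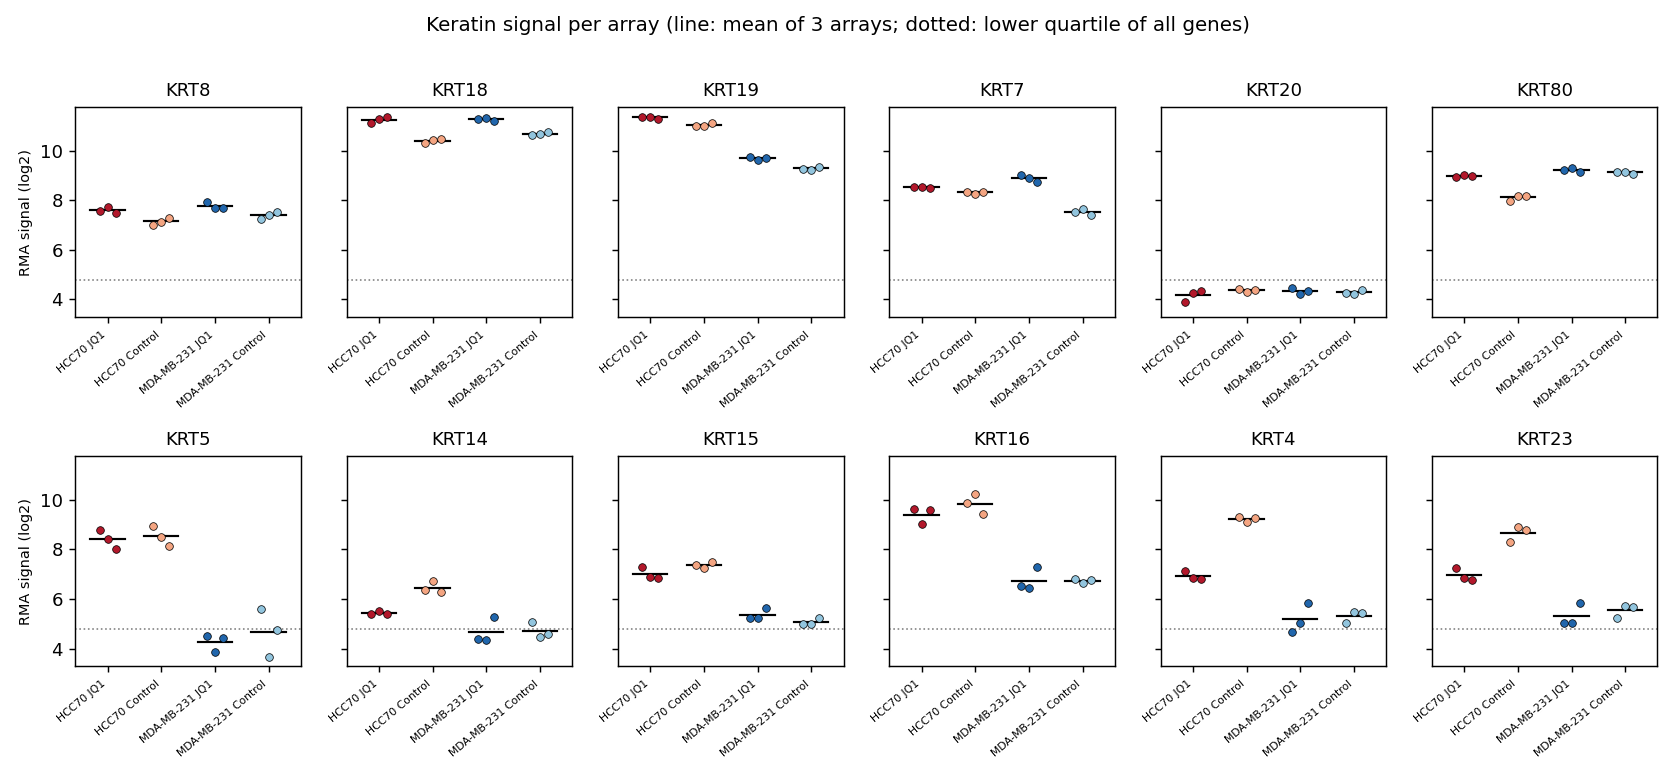
Signal of 12 keratins on each of the 12 arrays (vertical axis, RMA log2 signal), with a panel for each gene and a column for each group; points are single arrays, lines are means of 3 arrays and the dotted line is the lower quartile of all genes. KRT4, KRT5, KRT14, KRT15, KRT16 and KRT23 sit higher in both HCC70 groups than in both MDA-MB-231 groups, and KRT18 sits higher with JQ1 in both lines.

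HCC70 Control had higher signal than MDA-MB-231 Control for 9 keratins (KRT4, KRT5, KRT16, KRT23, KRT15, KRT19, KRT14, KRT7 and KRT9) and lower signal for 3 (KRT80, KRT10 and KRT18), at an adjusted p under 0.05 in limma. That is 25.5% of the keratins, against 47% of all genes, of which 23.8% were higher and 23.2% lower in HCC70 Control. The median difference was 0.18 over the keratins and 0.03 over all genes. Of the 5 basal and stress keratins 4 were higher in HCC70 Control and none was lower, with a median difference of 2.29. Without array 3 of HCC70 JQ1, MDA-MB-231 JQ1 and MDA-MB-231 Control, 18 keratins were called. The call of KRT18 was lost (limma, adjusted p = 0.059), and KRT3, KRT13, KRT78, the hair keratins KRT31, KRT36 and KRT84 and the root sheath keratin KRT72 were called in addition. MDA-MB-231 Control array 3 had the highest mean keratin level of its group (5.07, against 4.95 and 4.85), so leaving it out widens differences in favour of HCC70 Control. HCC70 Control array 3 was also the highest of its group (5.45, against 5.43 and 5.43) but was kept. The added calls are therefore no further support for a line difference.

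KRT5, the type II keratin of basal cells, was 8.93, 8.50 and 8.15 on the HCC70 Control arrays, against 5.58, 3.68 and 4.76 on the MDA-MB-231 Control arrays. The groups did not overlap, and the MDA-MB-231 Control mean of 4.67 ± 0.95 (SD, n = 3) lay below the lower quartile of genes with the widest spread of any keratin. The difference was at least 3.86 ± 0.39 (SE; limma, adjusted p = 2.3e-06). Its type I partner KRT14 was 6.37, 6.71 and 6.29 in HCC70 Control, against 5.08, 4.46 and 4.60 in MDA-MB-231 Control. KRT14 was thus higher on every HCC70 Control array, by at least 1.74 ± 0.23 (SE; limma, adjusted p = 2.8e-05), with MDA-MB-231 Control again below the lower quartile.

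KRT16, a type I keratin induced in stressed and wounded epidermis, was 9.87, 10.22 and 9.44 in HCC70 Control, against 6.79, 6.66 and 6.76 in MDA-MB-231 Control. The difference was 3.11 ± 0.24 (SE; limma, adjusted p = 1.9e-07), an 8.62-fold higher signal, and the MDA-MB-231 Control arrays were well inside the range of measured genes. KRT15, a type I keratin of basal and stem cells of stratified epithelia, was 7.37, 7.25 and 7.48 in HCC70 Control, against 5.0, 4.98 and 5.25 in MDA-MB-231 Control. It differed by 2.29 ± 0.14 (SE; limma, adjusted p = 2.7e-08), with no overlap. KRT6C, the fifth gene of the class, was dim in every group (means 2.88 to 3.09) and was not called.

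Among the 12 suprabasal keratins KRT4 stood apart. KRT4, the type II keratin of the upper layers of non-cornified epithelia such as the oesophagus, was 9.29, 9.10 and 9.27 in HCC70 Control, against 5.02, 5.48 and 5.43 in MDA-MB-231 Control. All HCC70 Control arrays were far above all MDA-MB-231 Control arrays, by 3.91 ± 0.23 (SE; limma, adjusted p = 1.9e-08), a 15.03-fold higher signal. Its usual partner KRT13 was below the lower quartile in all 4 groups (means 4.12 to 4.51) and was not called, with a difference of 0.39 (95% interval -0.07 to 0.84). KRT9, a keratin of palm and sole skin, was higher in HCC70 Control by at least 0.72 ± 0.19 (SE; limma, adjusted p = 0.0059), with MDA-MB-231 Control below the lower quartile. KRT10, which marks cells leaving the basal layer, was 4.787, 4.997 and 4.924 in HCC70 Control, against 5.38, 5.18 and 5.14 in MDA-MB-231 Control. It was lower in HCC70 Control by a difference of -0.33 ± 0.10 (SE; limma, adjusted p = 0.020), and was not called without HCC70 Control array 1 (adjusted p = 0.084), without MDA-MB-231 Control array 1 (adjusted p = 0.089) or with robust moderation and a variance trend (adjusted p = 0.055).

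KRT23, a type I keratin, was 8.29, 8.89 and 8.79 in HCC70 Control, against 5.25, 5.73 and 5.67 in MDA-MB-231 Control. It was higher on every HCC70 Control array, by 3.11 ± 0.23 (SE; limma, adjusted p = 1.6e-07). KRT80, a type II keratin of many epithelia, went the other way. It was 7.99, 8.19 and 8.17 in HCC70 Control, against 9.15, 9.16 and 9.08 in MDA-MB-231 Control, a difference of -1.01 ± 0.085 (SE; limma, adjusted p = 5.0e-07). KRT80 was the single keratin among the 3 lower ones whose difference reached 1.

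Of the 5 simple keratins 2 were higher and 1 lower in HCC70 Control. KRT19, a type I keratin without a tail domain, was 10.984, 10.998 and 11.114 in HCC70 Control, against 9.28, 9.22 and 9.36 in MDA-MB-231 Control, higher by 1.74 ± 0.078 (SE; limma, adjusted p = 1.3e-09). KRT7, the type II keratin of ducts and glands, was 8.35, 8.26 and 8.35 in HCC70 Control, against 7.51, 7.66 and 7.39 in MDA-MB-231 Control, higher by 0.80 ± 0.093 (SE; limma, adjusted p = 8.7e-06). Both were higher on all 3 HCC70 Control arrays. The pair KRT8 and KRT18 had lower means in HCC70 Control instead. On the brighter of its 2 transcript clusters KRT18 was 10.31, 10.43 and 10.49 in HCC70 Control, against 10.62, 10.68 and 10.75 in MDA-MB-231 Control, a difference of -0.28 ± 0.091 (SE; limma, adjusted p = 0.023). This call was lost without HCC70 Control array 1, MDA-MB-231 Control array 2 or MDA-MB-231 Control array 3 (adjusted p = 0.096, 0.051 and 0.068 in that order), and when all transcript clusters were tested (adjusted p = 0.052). The dimmer KRT18 cluster was also lower in HCC70 Control, by a difference of -0.39 ± 0.12 (SE; limma over all clusters with a symbol, adjusted p = 0.017). KRT8 was 7.02, 7.14 and 7.28 in HCC70 Control, against 7.26, 7.40 and 7.54 in MDA-MB-231 Control, where the arrays overlapped and the difference of -0.25 ± 0.11 (SE) did not pass (limma, adjusted p = 0.076), though it did without MDA-MB-231 Control array 1 (-0.32, adjusted p = 0.044) and when only genes above the median level were tested (adjusted p = 0.038). No hair keratin (0 of 13) and no root sheath keratin (0 of 9) was called, with differences within 0.45 in size.

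**Figure D2:**
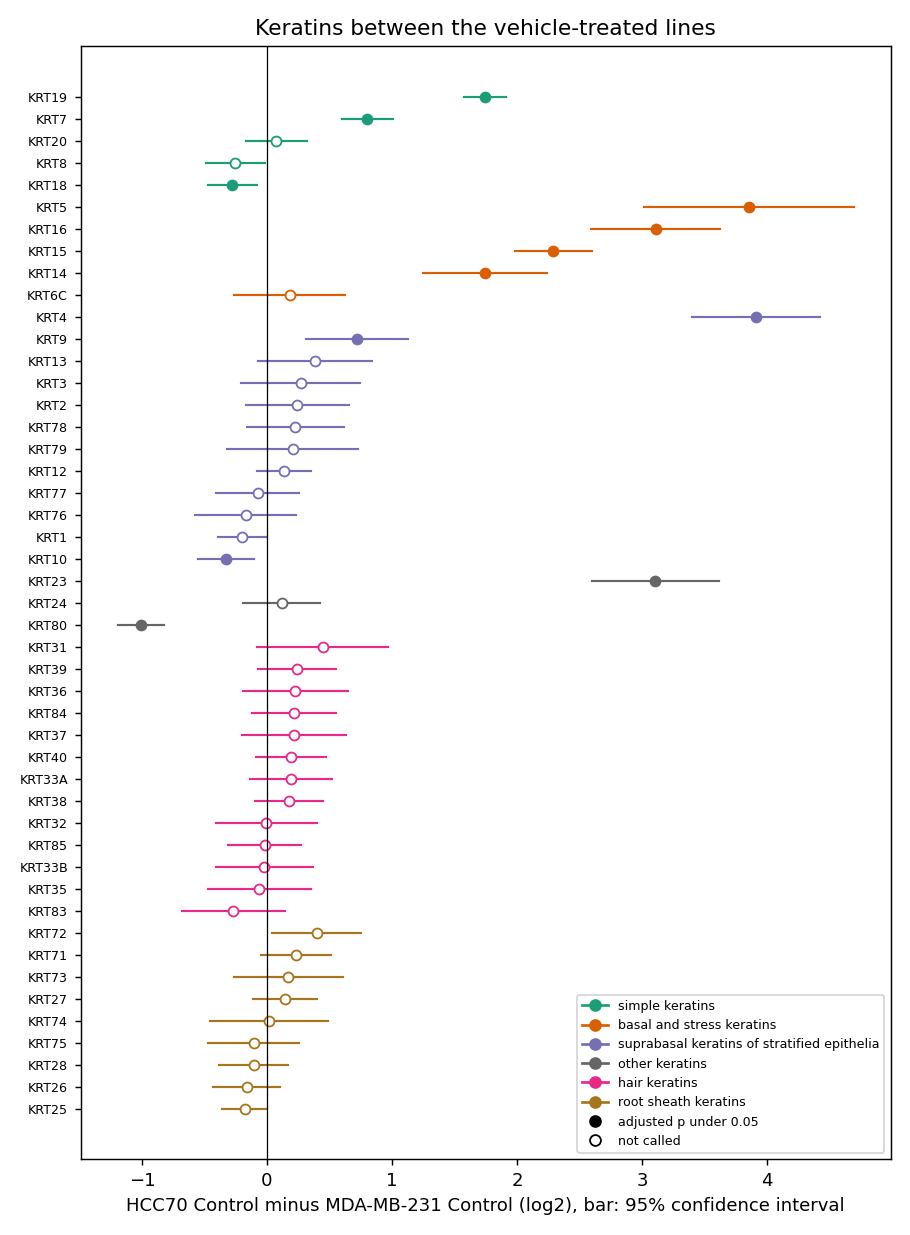
HCC70 Control minus MDA-MB-231 Control signal (horizontal axis, log2) for each of the 47 keratins, grouped by class, with 95% intervals. KRT4, KRT5, KRT16, KRT23 and KRT15 lie above 2, KRT80 lies at -1.01, and the hair and root sheath keratins lie within 0.45 of 0.

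In HCC70, JQ1 raised 4 keratins (KRT80, KRT18, KRT8 and KRT19) and lowered 4 (KRT4, KRT23, KRT14 and KRT10). These 8 are 17.02% of the keratins, against 21.7% of all genes, of which 9.18% rose and 12.5% fell, so the keratins' share is near that of the background. The keratins that rose were simple keratins (3 of 5) and KRT80. Those that fell were 1 of 5 basal and stress keratins, 2 of 12 suprabasal keratins and KRT23. The median change was -0.02 over the keratins and 0.01 over all genes.

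KRT4 had the largest change with JQ1 of the 47 keratins in HCC70. It was 7.12, 6.85 and 6.81 on the HCC70 JQ1 arrays, against 9.29, 9.10 and 9.27 on the HCC70 Control arrays. Every JQ1 array was below every Control array, and KRT4 fell by 2.29 ± 0.23 (SE; limma, adjusted p = 1.9e-05), to a 4.91-fold lower signal. The mean in HCC70 JQ1 (6.92 ± 0.17, SD, n = 3) was still above both MDA-MB-231 means (5.19 ± 0.61 with JQ1 and 5.31 ± 0.25 with vehicle). KRT23 was 7.27, 6.85 and 6.78 in HCC70 JQ1, against 8.29, 8.89 and 8.79 in HCC70 Control, and fell by 1.69 ± 0.23 (SE; limma, adjusted p = 2.0e-04) without overlap. KRT4 and KRT23 were thus both high in HCC70 Control relative to MDA-MB-231 Control and lower with JQ1, and these comparisons share the HCC70 Control arrays.

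KRT14 was 5.40, 5.51 and 5.38 in HCC70 JQ1, against 6.37, 6.71 and 6.29 in HCC70 Control. It fell by 1.03 ± 0.23 (SE; limma, adjusted p = 0.0058), lower on every JQ1 array. Its partner KRT5 was 8.79, 8.43 and 8.03 in HCC70 JQ1, against 8.93, 8.50 and 8.15 in HCC70 Control. These arrays overlapped widely and the change of -0.11 did not pass (95% interval -0.95 to 0.73; limma, adjusted p = 0.90). A fall in KRT5 of up to 0.95 on the log2 scale is thus within its interval. KRT16 was 9.61, 9.01 and 9.58 in HCC70 JQ1, against 9.87, 10.22 and 9.44 in HCC70 Control (change -0.44; limma, adjusted p = 0.25), and overlapped. KRT15 was 7.28, 6.90 and 6.84 in HCC70 JQ1, against 7.37, 7.25 and 7.48 in HCC70 Control (change -0.36; limma, adjusted p = 0.098), and passed without JQ1 array 1 (-0.50, adjusted p = 0.029). KRT10 was 4.68, 4.52 and 4.54 in HCC70 JQ1, against 4.787, 4.997 and 4.924 in HCC70 Control. It fell by 0.32 ± 0.10 (SE; 95% interval of the change -0.55 to -0.10; limma, adjusted p = 0.043) to a level below the lower quartile. Centring each array on its median moved the change to -0.25 (limma, adjusted p = 0.11). KRT10 was also not called when any of 6 single arrays was left out, with adjusted p-values of 0.055 to 0.16.

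Among the simple keratins in HCC70, KRT18 was 11.10, 11.30 and 11.37 in HCC70 JQ1, against 10.31, 10.43 and 10.49 in HCC70 Control. Every JQ1 array was above every Control array, and KRT18 rose by 0.85 ± 0.091 (SE; limma, adjusted p = 2.7e-05). KRT18 has 2 transcript clusters with its symbol, and these values are from the brighter one, whose number lies among clusters of chromosome 3 genes such as CMTM7 and CCR4. The dimmer cluster, whose number lies among chromosome 12 genes such as KRT7 and EIF4B, averaged 7.72 ± 0.15 in HCC70 JQ1 and 7.13 ± 0.15 in HCC70 Control (SD, n = 3 each), and rose by 0.59 ± 0.12 (SE; limma, adjusted p = 0.0031). Whether both clusters measure KRT18 itself was not tested.

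KRT8 was 7.57, 7.72 and 7.50 in HCC70 JQ1, against 7.02, 7.14 and 7.28 in HCC70 Control, and rose by 0.45 ± 0.11 (SE; limma, adjusted p = 0.0094). KRT19 was 11.38, 11.35 and 11.30 in HCC70 JQ1, against 10.984, 10.998 and 11.114 in HCC70 Control, and rose by 0.31 ± 0.078 (SE; limma, adjusted p = 0.011). Both were higher on all 3 JQ1 arrays. KRT7 was 8.53, 8.53 and 8.49 in HCC70 JQ1, against 8.35, 8.26 and 8.35 in HCC70 Control, also without overlap, but the change of 0.20 did not pass (limma, adjusted p = 0.17). KRT80 was 8.96, 9.02 and 8.98 in HCC70 JQ1, against 7.99, 8.19 and 8.17 in HCC70 Control. It rose by 0.87 ± 0.085 (SE; limma, adjusted p = 1.3e-05), a 1.83-fold higher signal and the keratin change with the smallest p in HCC70. No hair or root sheath keratin was called in HCC70, with changes of at most 0.37 in size.

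**Figure D3:**
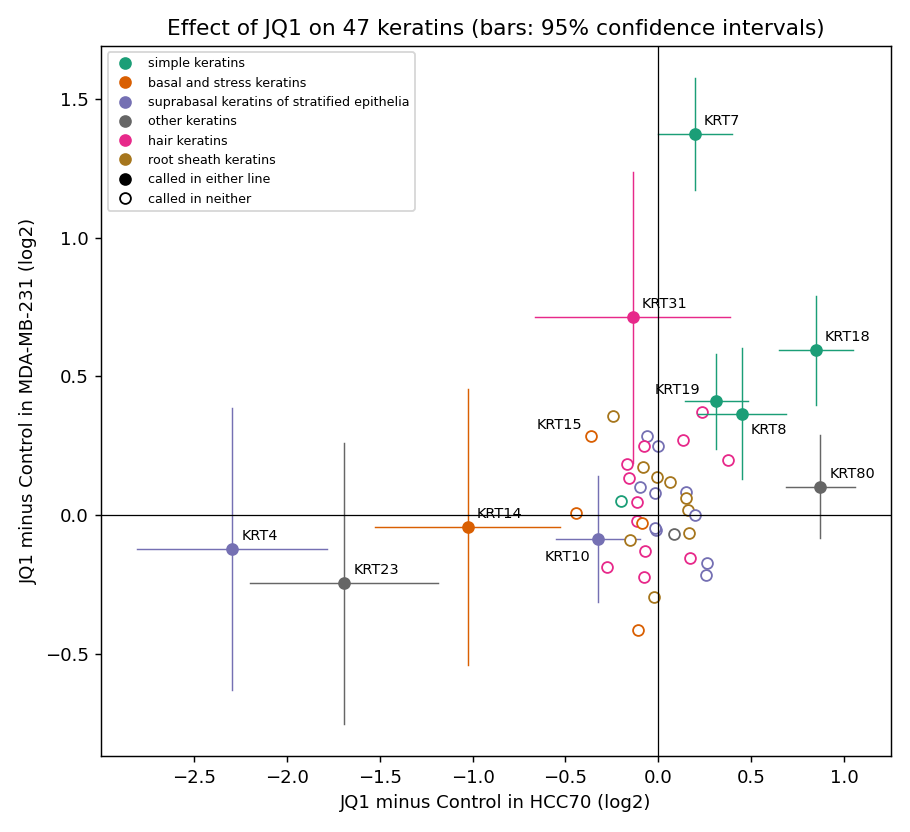
Change with JQ1 in each line (log2, JQ1 minus Control), HCC70 on the horizontal axis and MDA-MB-231 on the vertical axis, with a point for each of the 47 keratins. KRT18 (brighter cluster), KRT8 and KRT19 lie above 0 in both lines, KRT7 lies high in MDA-MB-231 (1.37) and near 0 in HCC70 (0.20), and KRT4 and KRT23 lie low in HCC70 alone (-2.29 and -1.69).

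In MDA-MB-231, JQ1 raised 5 keratins and lowered none. They were the simple keratins KRT7, KRT18, KRT19 and KRT8 and the hair keratin KRT31. The 5 are 10.6% of the keratins, against 27.8% of all genes, of which 10.8% rose and 17% fell, and the median change was 0.05 over the keratins and 0.02 over all genes. Of the 42 other keratins the largest change in size was that of KRT5 (-0.41). Without array 3 of HCC70 JQ1, MDA-MB-231 JQ1 and MDA-MB-231 Control these same 5 were called. MDA-MB-231 Control array 3 was the highest of its group for KRT31 (6.28, against 5.04 and 5.46) and for KRT8 (7.54, against 7.26 and 7.40). Leaving it out widens the rises of KRT31 and KRT8, so their calls gain no further support from this fit. Without MDA-MB-231 JQ1 array 3 alone, KRT31 was not called (limma, adjusted p = 0.071). With the replicate number as a block, 3 keratins were called in MDA-MB-231 (KRT7, KRT18 and KRT19).

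KRT7 was 9.01, 8.91 and 8.75 on the MDA-MB-231 JQ1 arrays, against 7.51, 7.66 and 7.39 on the MDA-MB-231 Control arrays. The groups were wide apart, and KRT7 rose by 1.37 ± 0.093 (SE; limma, adjusted p = 2.6e-07), a 2.59-fold higher signal. With JQ1 its mean in MDA-MB-231 (8.89 ± 0.13, SD, n = 3) lay above that in both HCC70 groups (8.52 ± 0.025 with JQ1 and 8.32 ± 0.052 with vehicle), whereas the vehicle-treated lines stood in the opposite order. KRT18 was 11.29, 11.33 and 11.22 in MDA-MB-231 JQ1, against 10.62, 10.68 and 10.75 in MDA-MB-231 Control, and rose by 0.59 ± 0.091 (SE; limma, adjusted p = 3.0e-04). The dimmer KRT18 cluster averaged 7.72 ± 0.12 in MDA-MB-231 JQ1 and 7.52 ± 0.18 in MDA-MB-231 Control (SD, n = 3 each), and its change of 0.20 ± 0.12 (SE) did not pass (limma, adjusted p = 0.25). The call for KRT18 in MDA-MB-231 therefore rests on the brighter cluster.

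KRT19 was 9.75, 9.64 and 9.70 in MDA-MB-231 JQ1, against 9.28, 9.22 and 9.36 in MDA-MB-231 Control. It rose by 0.41 ± 0.078 (SE; limma, adjusted p = 0.0015), higher on every JQ1 array. KRT8 was 7.92, 7.67 and 7.70 in MDA-MB-231 JQ1, against 7.26, 7.40 and 7.54 in MDA-MB-231 Control. It rose by 0.37 ± 0.11 (SE; limma, adjusted p = 0.024), without overlap, but did not pass with the replicate block (adjusted p = 0.054). KRT8 also missed the threshold without JQ1 array 1, Control array 1 or Control array 2 (adjusted p = 0.095, 0.099 and 0.060 in that order). KRT31, a type I keratin of the hair cortex, was 6.516, 6.197 and 6.212 in MDA-MB-231 JQ1, against 5.04, 5.46 and 6.28 in MDA-MB-231 Control. Its arrays overlapped, the rise was 0.71 ± 0.24 (SE; limma, adjusted p = 0.044), and it did not pass with the replicate block (adjusted p = 0.073) or without Control array 1 (0.44, adjusted p = 0.18). In all, 10 of the 12 single arrays, of either line, ended its call when left out. The other 12 hair keratins and all 9 root sheath keratins were not called, with changes of at most 0.37 in size.

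None of the 4 keratins that JQ1 lowered in HCC70 was called in MDA-MB-231, where both group means of KRT4, KRT23 and KRT14 were below those in HCC70 and both of KRT10 above. KRT4 was 4.66, 5.05 and 5.85 in MDA-MB-231 JQ1, against 5.02, 5.48 and 5.43 in MDA-MB-231 Control (change -0.12; limma, adjusted p = 0.75). KRT23 was 5.04, 5.03 and 5.84 in MDA-MB-231 JQ1, against 5.25, 5.73 and 5.67 in MDA-MB-231 Control (change -0.25; limma, adjusted p = 0.49). In both genes the groups overlapped and JQ1 array 3 was the highest of its group, and without it the changes were -0.45 for KRT4 and -0.52 for KRT23 (limma, adjusted p = 0.065 and 0.092). KRT14 was 4.37, 4.35 and 5.28 in MDA-MB-231 JQ1, against 5.08, 4.46 and 4.60 in MDA-MB-231 Control (change -0.04; limma, adjusted p = 0.92). KRT5 was 4.49, 3.85 and 4.43 in MDA-MB-231 JQ1, against 5.58, 3.68 and 4.76 in MDA-MB-231 Control (change -0.41; limma, adjusted p = 0.48). Both means of KRT5 and of KRT14 were below the lower quartile of genes, so these arrays can show little of a fall in them. Without JQ1 array 3 the change was -0.35 for KRT14 and -0.26 for KRT16, and neither passed (limma, adjusted p = 0.17 and 0.44). KRT16 was 6.50, 6.45 and 7.27 in MDA-MB-231 JQ1, against 6.79, 6.66 and 6.76 in MDA-MB-231 Control (change 0.01; limma, adjusted p = 0.99). KRT15 was 5.22, 5.22 and 5.64 in MDA-MB-231 JQ1, against 5.0, 4.98 and 5.25 in MDA-MB-231 Control, and its groups overlapped. KRT80 was 9.23, 9.32 and 9.13 in MDA-MB-231 JQ1, against 9.15, 9.16 and 9.08 in MDA-MB-231 Control (change 0.10; limma, adjusted p = 0.43). KRT10 was 5.28, 5.18 and 4.98 in MDA-MB-231 JQ1, against 5.38, 5.18 and 5.14 in MDA-MB-231 Control, and KRT31 in HCC70 was 5.70, 6.06 and 5.95 with JQ1, against 6.24, 5.88 and 6.01 with vehicle. Neither passed.

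The difference of the JQ1 effects between the lines was tested directly, as the effect in HCC70 minus that in MDA-MB-231. It passed for 5 keratins, 1 positive (KRT80) and 4 negative (KRT4, KRT23, KRT7 and KRT15). That is 10.6% of the keratins, against 15% of all genes, of which 9.02% were positive and 5.95% negative, and the median was -0.10 over the keratins and 0.00 over all genes. KRT7 differed by -1.18 ± 0.13 (SE; limma, adjusted p = 6.0e-05), with the larger rise in MDA-MB-231. KRT4 differed by -2.17 ± 0.33 (SE; limma, adjusted p = 7.4e-04) and KRT23 by -1.44 ± 0.33 (SE; limma, adjusted p = 0.010), with the larger falls in HCC70. In MDA-MB-231 the means with JQ1 and vehicle were 5.19 and 5.31 for KRT4 and 5.30 and 5.55 for KRT23. These lay not far above the lower quartile of genes (4.81 and 4.78), so a fall as large as in HCC70 had little room to show. KRT80 differed by 0.77 ± 0.12 (SE; limma, adjusted p = 9.0e-04), with the larger rise in HCC70. KRT15 differed by -0.65 ± 0.20 (SE; limma, adjusted p = 0.0497), where neither line's own change had passed, and 8 of the 12 single arrays ended this call when left out.

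For the other keratins that JQ1 moved, the lines could not be told apart. The difference of effects was 0.26 for KRT18 (95% interval -0.03 to 0.54) (limma, adjusted p = 0.23), which passed with robust moderation and a variance trend (adjusted p = 0.045). It was 0.08 for KRT8 (adjusted p = 0.79) and -0.10 for KRT19 (adjusted p = 0.65). A p that misses the threshold does not show that the lines responded alike. For KRT31 the difference of -0.85 missed the threshold (limma, adjusted p = 0.13). For KRT14 the difference of -0.98 missed it (limma, adjusted p = 0.062) but passed without MDA-MB-231 JQ1 array 1, MDA-MB-231 JQ1 array 2 or MDA-MB-231 Control array 1 (adjusted p = 0.043, 0.041 and 0.034 in that order) and with that moderation (0.029). KRT14 fell by 1.03 in HCC70 and changed by -0.04 in MDA-MB-231, where it was already below the lower quartile of genes.

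**Figure D4:**
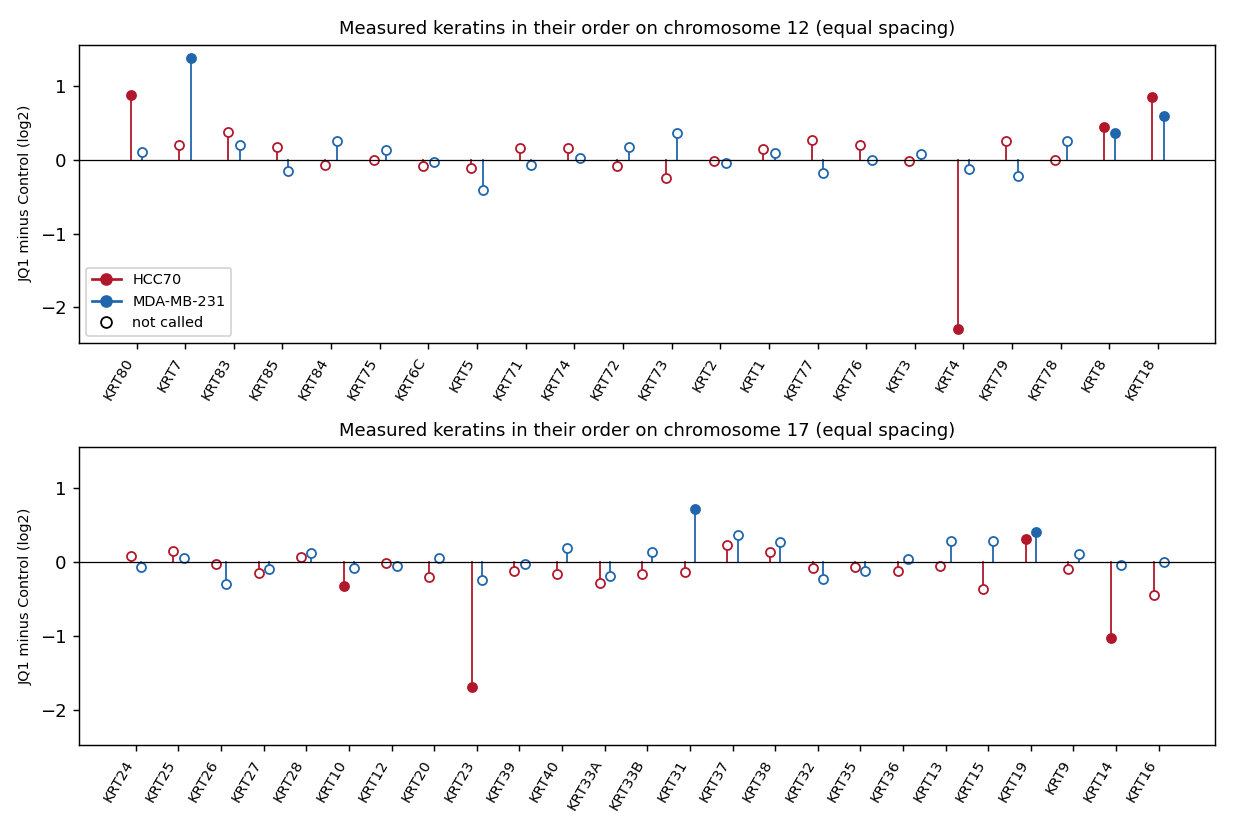
Change with JQ1 (log2, JQ1 minus Control) of the measured keratins in their order along chromosomes 12 and 17, for HCC70 and MDA-MB-231; filled points passed the test and the position shows order, not distance. KRT8 and KRT18 are drawn next to each other and are above 0 in both lines. The KRT18 values are from its brighter cluster, whose number lies among clusters of chromosome 3 genes. KRT4 (-2.29 in HCC70) stands among neighbours that were not called.

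Neighbouring keratins are described here in the order of those measured. KRT4 lies on chromosome 12 among KRT3, KRT76, KRT79 and KRT78, suprabasal keratins of which none was called with JQ1 in either line. KRT23 lies on chromosome 17 between KRT20 and KRT39, and neither was called with JQ1. KRT8 and KRT18 are adjacent on chromosome 12, where the type I gene KRT18 lies at the end of the type II cluster. Both rose in each line by the brighter KRT18 cluster, whose number lies among clusters of chromosome 3 genes. The dimmer KRT18 cluster, whose number lies among chromosome 12 genes, rose in HCC70 (0.59) but did not pass in MDA-MB-231 (0.20).

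The transcription factors known to act on keratin genes and the proteins that anchor keratin filaments were described alongside. Of 25 listed regulators 19 were measured, and HCC70 Control was higher than MDA-MB-231 Control for 10 and lower for 3, which is 68.4% of them against 47% of all genes. Among the higher ones were GRHL2 by at least 5.18 and GRHL1 by 3.40, grainyhead factors of epithelial cells, TFAP2C by 2.32, an AP-2 factor, and HOXC13 by 2.75, a factor of hair keratin genes. With JQ1 in HCC70, 1 regulator rose and 2 fell (15.8%, against 21.7% of all genes). TFAP2C rose by 0.56 ± 0.093 (SE; limma, adjusted p = 7.4e-04), and EHF, an ETS factor of epithelia, fell by 1.09 ± 0.084 (SE; limma, adjusted p = 1.9e-06), while GRHL3 fell by 0.81. With JQ1 in MDA-MB-231, 3 rose and 2 fell (26.3%, against 27.8% of all genes), and in both lines these shares are near or below the background. TFAP2C fell there by 1.03 ± 0.093 (SE; limma, adjusted p = 3.5e-06), and its difference of effects was 1.59 ± 0.13 (SE; limma, adjusted p = 6.4e-06). KLF5, a factor of basal and proliferating epithelium, rose by 0.60 in MDA-MB-231 and HOXC13 by 0.58. Whether these factors bear on the keratin changes was not tested.

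Of 18 listed anchors and partners 11 were measured, and 8 were higher and 2 lower in HCC70 Control than in MDA-MB-231 Control (90.9%, against 47% of all genes), EPPK1 by at least 3.18 and PKP1 by 3.04 among the higher ones. With JQ1, 3 rose and 1 fell in HCC70 (36.4%, against 21.7% of all genes), and 4 rose and 1 fell in MDA-MB-231 (45.5%, against 27.8%). EPPK1, which encodes epiplakin, a keratin-binding linker, rose by 1.96 ± 0.11 (SE; limma, adjusted p = 1.3e-07) in HCC70 and by at least 1.13 ± 0.11 (SE; limma, adjusted p = 5.8e-06) in MDA-MB-231, where its vehicle level of 4.71 was below the lower quartile. PLEC, which encodes plectin, rose by 0.48 in HCC70 and 0.60 in MDA-MB-231, and PPL, which encodes periplakin, by 0.51 and 0.67 in those lines. PKP1, a desmosomal plakophilin, fell by 0.87 in HCC70. SFN, which encodes stratifin, an adaptor protein that binds keratins, fell by 2.28 ± 0.11 (SE; limma, adjusted p = 1.3e-08) in MDA-MB-231.

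Of 16 intermediate filament genes that are not keratins 8 were measured, and 0 rose and 3 fell with JQ1 in HCC70 (37.5%, against 21.7% of all genes), and 0 rose and 2 fell in MDA-MB-231 (25%, against 27.8%). VIM encodes vimentin, the filament protein of mesenchymal cells, and was lower in HCC70 Control than in MDA-MB-231 Control by a difference of -3.29 ± 0.11 (SE; limma, adjusted p = 1.0e-10). On its brightest cluster VIM averaged 5.41 ± 0.24 in HCC70 JQ1 and 7.13 ± 0.11 in HCC70 Control (SD, n = 3 each), and fell by 1.72 ± 0.11 (SE; limma, adjusted p = 4.7e-07). Its other clusters fell by 0.65 and 0.88 in HCC70 and both passed. In MDA-MB-231 the brightest VIM cluster changed by 0.15 and did not pass, while the other clusters rose by 0.72 and 0.89 and did. The counts in this paragraph take VIM by its brightest cluster alone, so the rise on its other clusters in MDA-MB-231 is not counted. The nuclear lamin gene LMNB1 fell by 1.06 in HCC70 and fell by 2.31 in MDA-MB-231, and LMNB2 fell by 0.43 in HCC70 and fell by 1.29 in MDA-MB-231. Of the 7 epithelial line markers 1 rose and 0 fell with JQ1 in HCC70 (14.3%, against 21.7% of all genes), while 0 rose and 4 fell in MDA-MB-231 (57.1%, against 27.8%), EPCAM by 1.74 among them. Of the 7 mesenchymal markers 0 rose and 3 fell in HCC70, VIM included (42.9%, against 21.7%), and 0 rose and 2 fell in MDA-MB-231 (28.6%, against 27.8%).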

How the data were processed

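Log2 signals of transcript clusters on 12 arrays were used as deposited, and the submitters' processing notes name RMA, oligo and limma with no version. For each sample 150 ng of RNA was labelled, per the labels. Which genome build the annotation follows is not stated in the sources at hand. A single symbol was given for 16098 of 53617 clusters and several symbols for 0. Where clusters shared a symbol (779 genes) the brightest over all arrays stood for the gene, leaving 14884 genes. No detection call was used and no dim gene was left out. No pair of arrays shared more than 0.229% of its values, and the number of arrays limits the precision.

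The 4 groups were fitted together in limma 3.58.1 under R 4.3.3, using lmFit and plain eBayes, with 4 two-sided contrasts and Benjamini-Hochberg adjustment over all genes.

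Same-numbered JQ1 and Control arrays deviated together in MDA-MB-231 (correlations 0.155, 0.121 and 0.362) but not in HCC70 (-0.059, 0.015 and 0.070). In MDA-MB-231, JQ1 array 1 and Control array 2 also correlated at 0.121, so the numbers may pair samples there but were not shown to. The main fit used no pairing, and the replicate block was run as an alternative. Array values are given for keratins called with a difference of at least 1, for keratins called with JQ1 at any size, and for a fixed set of basal and simple keratins. Of the other lists, at most 4 members with the smallest p in each comparison are named, plus VIM. The keratins and the lists were chosen with earlier results of these data known. Alternatives were the replicate block, median centring, robust moderation with a trend, genes above the median level only, the mean of a gene's clusters, a minimum size of change, testing all clusters, fitting each line alone, leaving out arrays, and the dimmer KRT18 cluster, which was chosen after seeing the data.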

Additional observations from a re-analysis of the deposited data

Results flagged for a closer look

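The change with JQ1 differed between the lines, by a test of the difference itself (the effect in HCC70 minus that in MDA-MB-231, limma), for 5 keratins. On the log2 scale the difference was -2.17 for KRT4, -1.44 for KRT23, -1.18 for KRT7, -0.65 for KRT15 and 0.77 for KRT80. In MDA-MB-231 the KRT4 and KRT23 means lay not far above the lower quartile of genes, which leaves little room for a fall there. JQ1 array 3 was the highest of its group in MDA-MB-231 for KRT4, KRT23 and KRT15, and without that array the differences were -1.84 for KRT4, -1.17 for KRT23 and -0.51 for KRT15 (limma, adjusted p = 1.9e-04, 0.015 and 0.10 in that order). KRT15 also missed the threshold with any of 7 other arrays left out, after centring each array (-0.64, adjusted p = 0.057) and with all transcript clusters tested (adjusted p = 0.12).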

How the results depend on the processing

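No called value of a keratin changed sign. Of 928 recomputed values of single keratins 871 kept their side of the threshold, 49 lost the call and 8 gained it. With the replicate block 3 keratins were called in MDA-MB-231, and 14 between the vehicle-treated lines, 8 in HCC70 and 5 for the difference of effects. Testing all transcript clusters, or fitting each line alone, also left 3 in MDA-MB-231, where KRT8 and KRT31 were lost. Requiring a difference of at least 1 left 3 in HCC70, 1 in MDA-MB-231 and 3 for the difference of effects, which follows from the stricter rule. Leaving out each array in turn gave 11 to 14 between lines, 7 to 9 in HCC70, 3 to 5 in MDA-MB-231 and 4 to 6 for the difference of effects, and MDA-MB-231 JQ1 array 1, MDA-MB-231 Control array 1 or MDA-MB-231 Control array 2 brought MDA-MB-231 to 3. The dimmer KRT18 cluster, chosen after seeing the data, left 4 in MDA-MB-231. Testing only genes above the median level, which leaves out the dimmer keratins, gave 9 between lines, 6 in HCC70, 4 in MDA-MB-231 and 4 for the difference of effects. The causes were not tested. Centring arrays on their medians shifted JQ1 effects by 0.07 in both lines. The numbers 1 to 3 were not shown to pair samples in either line, and the main fit used no pairing. With 23 of 47 keratins below the lower quartile of genes in every group, a fall in those has little room to show.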
